A study of Mus musculus with 20 samples.

Results

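De novo lipogenesis, the route by which the liver turns acetyl-CoA into fatty acids, was followed through 10 genes: *Acly*, *Acss2*, *Acaca*, *Acacb*, *Fasn*, *Scd1*, *Elovl6*, *Srebf1*, *Mlxipl* and *Pnpla3*. They were picked by symbol from the 48440 genes counted in each liver, and 10 of the 10 were found and passed the filter on low counts, which left 16071 genes for testing. RNA came from the livers of 20 wild-type female C57BL/6 mice (C57BL/6J in the study's methods), 8 weeks old when the experiments were carried out, with 5 mice in each of 4 groups. The mice received corticosterone (CORT), the main glucocorticoid of rodents, or vehicle for 5 weeks, together with repeated intraperitoneal injections of a monoclonal antibody against ACBP (αACBP) or of an IgG2a isotype control antibody. ACBP, also called DBI, is an acyl-CoA binding protein that also acts outside the cell, and the antibody is meant to neutralize it there. The groups without the antibody against ACBP are called Isotype + Vehicle and Isotype + CORT, since these mice still received an antibody. Those with it are called αACBP + Vehicle and αACBP + CORT. CORT-treated mice served as a model of Cushing's syndrome, and the comparisons asked what CORT and the antibody each did to the liver.

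In de novo lipogenesis, ATP-citrate lyase (*Acly*) and the acetyl-CoA synthetase *Acss2* provide cytosolic acetyl-CoA from citrate and from acetate. The acetyl-CoA carboxylases *Acaca* and *Acacb* convert it into malonyl-CoA. The product of *Acaca* feeds fatty acid synthase (*Fasn*), whereas *Acacb* lies at the mitochondrial surface, where malonyl-CoA restrains fatty acid oxidation. The elongase *Elovl6* lengthens palmitate, and the desaturase *Scd1* makes monounsaturated fatty acids. *Srebf1* encodes SREBP-1, which mediates much of the response of these genes to insulin, and *Mlxipl* encodes ChREBP, which responds to sugars. *Pnpla3* encodes a lipid-droplet protein whose transcript follows feeding and SREBP-1.

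RefSeq start sites on GRCm38.p6 were available for 9 of the 10 genes, in 12 windows. The sequences before the starts of *Acss2*, *Acly* and *Pnpla3* are shown because these genes were called lower in at least 1 comparison below and their windows lie outside the annotated gene. Capitals mark matches on either strand to GGGCGG (the Sp1 motif) or CCAAT (the NF-Y motif), and the searched motifs did not overlap each other here. Each window was searched over the 250 bases before its start, and for *Pnpla3* only the 210 of these that precede the annotated gene are shown.
Acss2, chr2:155517793-155518042, plus strand: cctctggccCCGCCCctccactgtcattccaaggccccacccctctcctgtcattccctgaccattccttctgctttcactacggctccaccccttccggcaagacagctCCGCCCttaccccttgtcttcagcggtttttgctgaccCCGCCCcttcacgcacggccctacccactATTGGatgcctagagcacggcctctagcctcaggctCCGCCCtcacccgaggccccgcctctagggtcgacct
Acly, chr11:100528001-100528250, minus strand: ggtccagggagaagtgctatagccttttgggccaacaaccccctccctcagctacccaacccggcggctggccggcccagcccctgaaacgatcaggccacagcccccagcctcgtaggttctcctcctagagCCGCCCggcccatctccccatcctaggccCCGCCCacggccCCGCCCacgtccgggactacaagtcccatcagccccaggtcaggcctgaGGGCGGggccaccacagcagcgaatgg
Pnpla3, chr15:84167566-84167775, plus strand: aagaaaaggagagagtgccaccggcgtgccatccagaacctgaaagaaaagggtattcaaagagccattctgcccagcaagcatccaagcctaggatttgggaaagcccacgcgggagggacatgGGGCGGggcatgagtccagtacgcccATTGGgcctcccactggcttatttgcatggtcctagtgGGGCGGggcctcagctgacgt
The *Acss2* sequence held 4 matches to GGGCGG and 1 to CCAAT, the *Acly* sequence 4 to GGGCGG, and the *Pnpla3* sequence 2 to GGGCGG and 1 to CCAAT. The motif GGGCGG was present in 6 of the 12 windows of 250 bases before the listed starts of lipogenic genes and in 32.7% of all 32851 windows, while 7 of 12 and 33.9% of all held CCAAT. The E-box CACGTG was found in 1 of 12 windows (6.02% of all) and the sterol response element TCACNCCAC in 1 of 12 (1.05% of all). Each of these last matches lay in a window of *Mlxipl*. The window with the sterol response element lies inside the annotated gene, as do those of *Acaca*, *Acacb*, *Fasn* and *Srebf1*. A match is a description of the letters and not a site shown to be bound.

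The genes lie on 6 chromosomes, and those named with a promoter sequence span chr2:155518043-155562743 (*Acss2*), chr11:100476352-100528000 (*Acly*) and chr15:84167776-84189521 (*Pnpla3*) on GRCm38.p6. *Acacb* spans chr5:114146321-114250761, *Fasn* chr11:120805958-120825166, *Scd1* chr19:44394450-44407709 and *Srebf1* chr11:60199084-60224186. In the GENCODE M39 gene models, genes on the opposite strand covered 10.3% of the exon bases of *Acss2* (*Acss2os* and *Ggt7*) and 2.58% of those of *Srebf1* (*Rai1*). A predicted gene on the same strand (*Gm49513*) covered 7.48% of *Pnpla3*, and *Acaca* shared a stretch of 547 bases with *Gm5182*. The longest shared stretch was 504 bases for *Acss2* (*Gss*), 235 for *Mlxipl* (*Gm43500*) and 213 for *Acly* (*Odad4*). Reads from such stretches may have been counted on either gene or on both, and the strand setting of the counting is not given in the sources used here.

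The counts on genes added up to 14.9 to 20.3 M per liver. At this depth 3 counts correspond to at most 0.205 CPM (counts scaled to a common library size with edgeR's TMM factors), a floor that covers counting error only. The lowest value of any lipogenic gene was 1.08 CPM. Log2 CPM correlated at 0.869 to 0.958 between same-group livers, and edgeR's common biological coefficient of variation was 0.481. Hepatocyte markers added up to 38400 CPM or more in every liver, and the 7 adipocyte markers to between 16.4 and 47.3 CPM, most of it *Lipe*, with *Lep* at 0 throughout. *Fkbp5*, a glucocorticoid receptor target, rose with CORT under isotype by 1.70 ± 0.26 on the log2 scale (SE, adjusted p = 0.000722). Of the 8 genes of that check it was the only 1 that passed there, and *Per1* (-1.16 ± 0.77, adjusted p = 0.544) and *Pck1* (0.28 ± 0.28, adjusted p = 0.734) did not. The fold change was below 0 for 6 of the 8, with a median of -0.32. With CORT under αACBP 0 of the 8 passed, and mean *Fkbp5* was 63.0 CPM with αACBP + Vehicle and 76.8 CPM with αACBP + CORT. In bulk tissue, fewer cells of a type and less RNA per cell cannot be told apart.

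Expressed per kilobase of the main transcript, the genes differed widely in level in Isotype + Vehicle livers. *Scd1* was the most abundant, at 1101 ± 123 CPM per kilobase (SD, n = 5), and was followed by *Mlxipl* at 310.2 ± 39.9 and *Acss2* at 191 ± 15.4. Below them stood *Fasn* at 90.6 ± 20.3, *Srebf1* at 75.4 ± 16.4 and *Acly* at 59.3 ± 11, and neighbours among these 3 differed by less than their combined spread. *Pnpla3* (31.5 ± 22.5) and *Elovl6* (28.8 ± 7.66) also lay within each other's spread, and the carboxylases were lowest, with *Acacb* at 15.7 ± 6.17 and *Acaca* at 9.48 ± 2.91. In Isotype + CORT livers *Scd1* (457 ± 361) and *Mlxipl* (277 ± 77.7) still stood first, while *Acss2* (52.1 ± 15.5), *Fasn* (51.1 ± 35.7) and *Srebf1* (42.9 ± 10.4) lay close together. *Pnpla3* was last there, at 3.27 ± 1.76 CPM per kilobase.

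**Figure D1:**
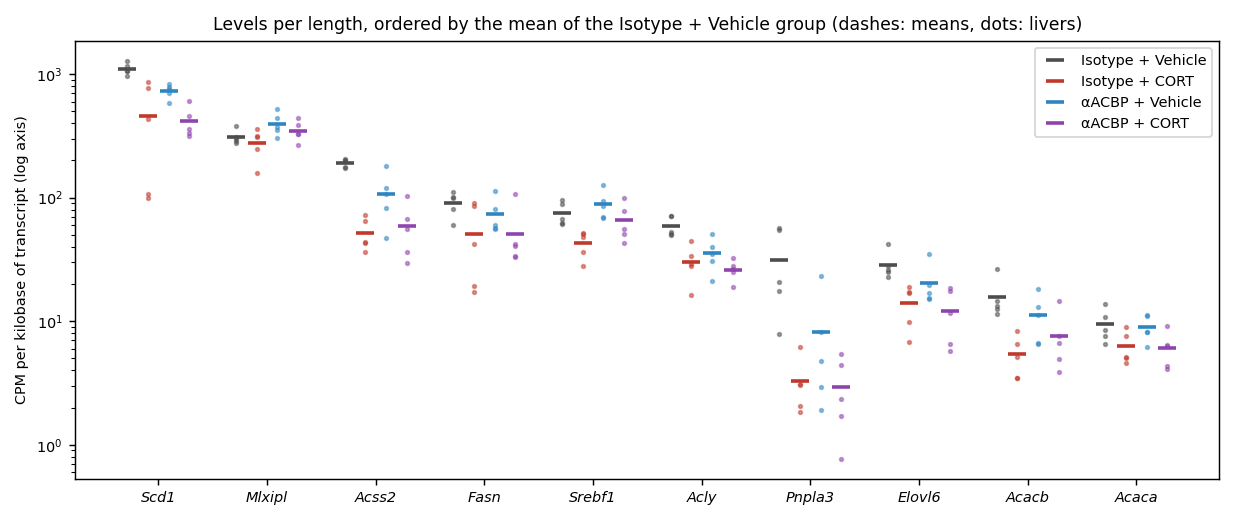
Level of each lipogenic gene per kilobase of transcript (CPM per kilobase, log axis), ordered by the Isotype + Vehicle mean; dots are single livers and dashes are means of 5 livers in each of the 4 groups. *Scd1* stands at the top at 1101 CPM per kilobase with Isotype + Vehicle, and *Pnpla3* has the widest distance between Isotype + Vehicle (31.5) and Isotype + CORT (3.27).

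With CORT under isotype, some enzymes and regulators of lipogenesis were lower in the liver, and others did not pass. Relative to Isotype + Vehicle, 3 of the 10 (*Acss2*, *Acacb* and *Pnpla3*) were called lower, that is, they passed an adjusted p of 0.05 in edgeR's quasi-likelihood test and differed by 1 or more on the log2 scale, against 1.43% of all genes tested, and 0 were called higher (0.510% of all). A further 2, *Acly* and *Srebf1*, fell at the adjusted p alone, which made 5 of 10 against 1.86% of all genes, and 0 rose (1.34% of all). The fold change was below 0 for 10 of 10, with a median of -1.002 beside 0.002 over all genes tested. In 7 of the 10 genes each Isotype + CORT liver was below each Isotype + Vehicle liver, and 3.02% of all genes showed such a separation downwards. These p-values reflect the spread between the mice of a group, estimated for each gene over all 4 groups together.

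Both genes of acetyl-CoA supply fell, and *Acss2* varied little among the controls. *Acss2* stood at 601, 523, 622, 604 and 529 CPM in the 5 Isotype + Vehicle livers and at 132, 217, 110.3, 195 and 129 CPM with Isotype + CORT. The control livers lay within a coefficient of variation of 8.06%, and the highest CORT-treated liver was far below the lowest control. *Acss2* fell by 72.8% (log2 fold change -1.88 ± 0.31 (SE), adjusted p = 0.00155), and this call was kept without any 1 liver, with log2 fold changes from -2.03 to -1.77. *Acly* was at 314, 234, 222, 315 and 223 CPM in Isotype + Vehicle livers and at 124, 198, 71.9, 147 and 129 CPM in Isotype + CORT livers. The groups were again separate, although the second CORT-treated liver came close to the controls. *Acly* fell by 48.7% (-0.96 ± 0.22, adjusted p = 0.014), just short of the limit on the fold change, and the adjusted p stayed at 0.0415 or less without any 1 liver.

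The carboxylases behaved unequally. *Acacb* was at 133, 121, 113, 241 and 105 CPM in Isotype + Vehicle livers and at 31.3, 59.1, 31.6, 46.4 and 76.1 CPM in Isotype + CORT livers. The groups did not overlap, and replicate 4 of Isotype + Vehicle stood above all others. *Acacb* fell by 65.7% (-1.54 ± 0.37, adjusted p = 0.0271). The adjusted p was 0.0795 without that liver, 0.0599 and 0.0558 without replicates 1 and 4 of Isotype + CORT, and 0.0545 without a filter on low counts. *Acaca*, the cytosolic isoform, ranged from 62.8 to 132 CPM with a median of 80.9 in Isotype + Vehicle livers and from 43.6 to 85.5 CPM with a median of 49.2 in Isotype + CORT livers. These groups overlapped, and the difference did not pass (-0.60 ± 0.24, adjusted p = 0.182). Within single livers, the level of *Acacb* per kilobase was 1.36, 1.57, 1.63, 1.91 and 1.75 times that of *Acaca* with Isotype + Vehicle and 0.384, 1.26, 0.689, 0.676 and 1.83 times with Isotype + CORT. In 4 of 5 CORT-treated livers this ratio was below each control liver, and in replicate 5 it was not. With αACBP the ratio was 0.802 to 1.80 (median 1.17) under vehicle and 0.901 to 1.59 (median 1.17) under CORT, so that it did not separate those groups. The ratio was chosen after the values were seen and was not tested.

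*Fasn*, the enzyme that builds palmitate, did not pass. It was at 1072, 866, 1087, 1210 and 653 CPM in Isotype + Vehicle livers and at 982, 931, 207, 453 and 185 CPM in Isotype + CORT livers. Replicates 1 and 2 of the CORT-treated group stood within the range of the controls and the other 3 below it. The log2 fold change was -0.83 ± 0.44 (95% interval -1.74 to 0.09, adjusted p = 0.39), with a coefficient of variation of 69.8% among CORT-treated livers against 22.4% among controls.

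*Scd1* and *Elovl6*, which desaturate and elongate the products, were separate between groups but did not pass. *Scd1* was at 5802, 5297, 5273, 6455 and 4833.5 CPM in Isotype + Vehicle livers and at 497, 2183, 4349.7, 3901 and 539 CPM in Isotype + CORT livers. The CORT-treated livers spread widely, with replicates 1 and 5 very low and replicates 3 and 4 not far below the controls. The log2 fold change of *Scd1* was -1.27 ± 0.44 (adjusted p = 0.131), and adjusted p was 0.0401 without replicate 3 of Isotype + CORT, at a log2 fold change of -1.64. *Elovl6* was at 172, 152, 141, 258 and 159 CPM in Isotype + Vehicle livers and at 117, 104, 60.6, 106 and 41.3 CPM in Isotype + CORT livers. Its CORT-treated livers were all below the controls, among which replicate 4 stood apart on the high side. The log2 fold change of *Elovl6* was -1.04 ± 0.34 (adjusted p = 0.103). With DESeq2's Wald test, *Scd1* and *Elovl6* were called too (adjusted p = 0.026 and 0.0244).

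Of the transcription factors, *Srebf1* fell and *Mlxipl* did not pass. *Srebf1* was at 388, 291, 269, 418 and 268 CPM in Isotype + Vehicle livers and at 121, 208, 224, 221 and 157 CPM in Isotype + CORT livers, without overlap. The decrease was 43.0% (-0.81 ± 0.22, adjusted p = 0.0411). The adjusted p rose above 0.05, to at most 0.112, without replicate 1, 2 or 5 of Isotype + CORT or replicate 1, 2, 4 or 5 of Isotype + Vehicle, and was 0.0761 with voom. The count is of the gene as a whole and does not tell apart the transcripts that begin at its 3 listed starts. *Mlxipl* ranged from 1011 to 1375 CPM with a median of 1082 in Isotype + Vehicle livers and from 572 to 1298 CPM with a median of 1124 in Isotype + CORT livers. Its groups overlapped, with replicates 4 (896 CPM) and 5 of Isotype + CORT below each control, and the log2 fold change was -0.16 ± 0.20 (95% interval -0.57 to 0.24, adjusted p = 0.8).

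*Pnpla3* had the largest fold change of the 10 genes with CORT under isotype. It was at 79.2, 29.2, 11.1, 76.8 and 24.8 CPM in Isotype + Vehicle livers and at 8.75, 2.90, 4.38, 4.30 and 2.58 CPM in Isotype + CORT livers. The groups were separate, but the controls differed from each other several-fold, and the lowest of them was close to the highest CORT-treated liver. *Pnpla3* fell by 89.7% (-3.27 ± 0.74, adjusted p = 0.0225). The adjusted p lay between 0.0533 and 0.0584 without replicate 4 of Isotype + Vehicle or without replicate 2, 4 or 5 of Isotype + CORT, and was 0.0527 with limma's voom and quality weights.

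**Figure D2:**
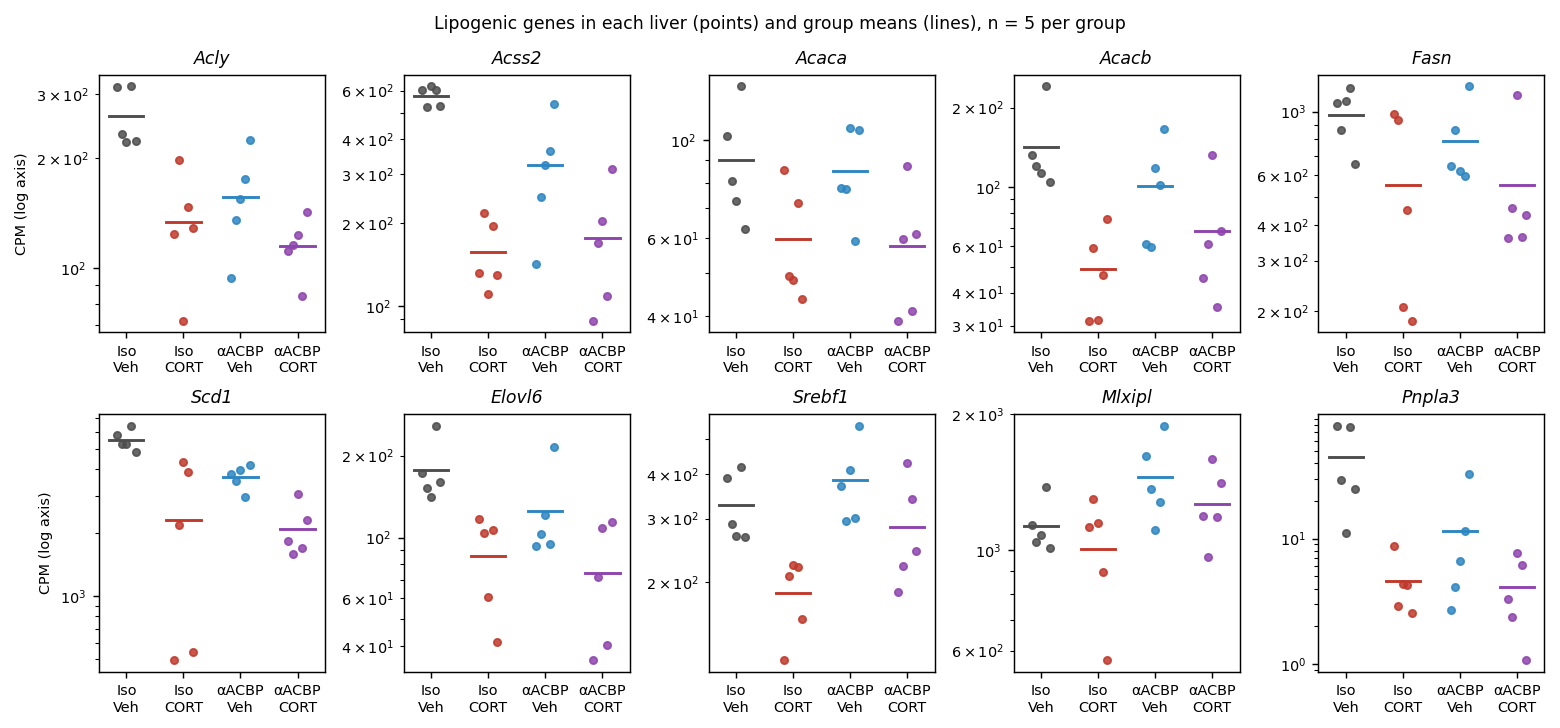
CPM of each lipogenic gene in every liver (log axes, points) with the mean of each group (lines), 5 livers in each of the 4 groups named on the horizontal axis (Iso, isotype; Veh, vehicle). The 5 Isotype + Vehicle livers of *Acss2* sit between 523 and 622 CPM, above the 5 Isotype + CORT livers at 110.3 to 217 CPM, whereas the same groups overlap for *Fasn*, *Acaca* and *Mlxipl*.

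A difference between the antibodies was not detected for any lipogenic gene in CORT-treated mice. Of the 10, 0 were called and 0 passed at the adjusted p alone between αACBP + CORT and Isotype + CORT with edgeR, against 0.597% and 0.958% of all genes, and 1 (*Srebf1*) had an unadjusted p under 0.05. DESeq2 and voom also called 0. Here and below, counts at an unadjusted p or by DESeq2 and voom are given without the share of all genes. Fold changes were above 0 for 5 genes and below 0 for 5, with a median of -0.02 beside 0.01 over all genes, and groups were separate for none of the 10 (3.22% of all genes). *Srebf1* was at 188, 222, 428, 340 and 244 CPM in αACBP + CORT livers, and 3 of the 5 were above each Isotype + CORT liver. The log2 fold change was 0.61 ± 0.22 (95% interval 0.15 to 1.07), but the adjusted p was 0.209. *Acss2* stood at 88.7, 169, 202, 109 and 313 CPM in αACBP + CORT livers, a wider range than with Isotype + CORT and overlapping it (0.17 ± 0.31, interval -0.46 to 0.80). *Fasn* was at 360.2, 458, 1149, 364 and 435 CPM, with replicate 3 far above the rest, and its log2 fold change was 0.004 ± 0.43 (interval -0.91 to 0.91), or -0.45 without that liver. *Acacb*, at 45.3, 60.9, 133, 35.2 and 68.5 CPM, likewise had its highest value in replicate 3 (0.49 ± 0.36, interval -0.28 to 1.25). *Scd1* was at 1817, 1578, 3048, 1689 and 2302 CPM, inside the wide range of Isotype + CORT (-0.14 ± 0.43, interval -1.04 to 0.77). *Pnpla3* remained low in both groups, at 3.29, 2.38, 7.69, 6.21 and 1.08 CPM with αACBP + CORT (-0.14 ± 0.71, interval -1.65 to 1.36). A p that misses the threshold does not show that the groups were alike.

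Among mice that received αACBP, none of the 10 genes passed the test for CORT against vehicle. Between αACBP + CORT and αACBP + Vehicle, 0 of 10 were called and 0 passed with edgeR (0.212% and 0.305% of all genes), while 3 had an unadjusted p under 0.05, DESeq2 called 0 and voom called 1 (*Acss2*). The fold change was below 0 for 10 of 10 with a median of -0.57 beside 0.01 over all genes, and no gene had separate groups (2.74% of all). *Acss2* was at 143, 249, 323, 362 and 538 CPM in αACBP + Vehicle livers, a span that reached from the CORT-treated to the control range. Its log2 fold change with CORT under αACBP was -0.87 ± 0.31 (adjusted p = 0.217), and without replicate 5 of αACBP + CORT it was -1.18 (adjusted p = 0.0353). *Elovl6* was at 93.0, 103, 121, 94.9 and 215 CPM with αACBP + Vehicle and at 35.5, 71.7, 109, 40.4 and 114 CPM with αACBP + CORT (-0.76 ± 0.34, adjusted p = 0.35). The remaining genes had adjusted p-values of 0.293 or more.

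Without CORT, no lipogenic gene passed the adjusted p between the antibodies with edgeR's model of all 4 groups, although *Acly*, *Acss2* and *Pnpla3* did with other tools. Between αACBP + Vehicle and Isotype + Vehicle, 0 of 10 were called with edgeR (1.30% of all genes) and 0 passed lower at the adjusted p alone (2.36% of all) or higher (2.78%), 3 had an unadjusted p under 0.05, and DESeq2 and voom each passed 3 and called 1 of them (*Pnpla3*). These counts at an unadjusted p or by DESeq2 and voom have no share of all genes beside them. The fold change was below 0 for 8 of 10, with a median of -0.49 beside -0.02 over all genes. Of 6 hepatocyte markers, 5 were below 0 as well, with a median of -0.49. Among these markers 4 had an unadjusted p under 0.05 and 0 passed. Their summed level was 38400 to 93240 CPM with αACBP + Vehicle and 68400 to 117700 CPM with Isotype + Vehicle. A relation between these shifts was not tested. *Acly* was at 93.9, 136, 155, 175 and 225 CPM in αACBP + Vehicle livers, and only replicate 5 reached the Isotype + Vehicle range (-0.73 ± 0.22, adjusted p = 0.0505). The adjusted p of *Acly* was as low as 0.0128 with voom and 0.0333 without replicate 5 of αACBP + Vehicle. For *Acss2* the log2 fold change was -0.83 ± 0.31 (adjusted p = 0.111, and 0.0126 with voom), again with replicate 5 alone inside the control range. *Pnpla3* was at 2.68, 4.12, 6.64, 11.5 and 32.8 CPM, with replicates 4 and 5 inside that range. Its log2 fold change was -1.93 ± 0.69 (adjusted p = 0.114), and -2.83 without replicate 5 of αACBP + Vehicle (adjusted p = 0.0402). *Scd1* was at 3814, 3513.5, 3985, 2947 and 4184 CPM and was the only 1 of the 10 with separate groups (3.63% of all genes were separate downwards), yet its log2 fold change of -0.58 ± 0.43 had an adjusted p of 0.507. That SE draws on all 4 groups. The coefficient of variation of *Scd1* was 79.0% with Isotype + CORT, 11.2% with Isotype + Vehicle and 13.1% with αACBP + Vehicle. Over the alternatives other than leaving out 1 liver, its adjusted p ranged from 0.0448 to 0.607, at log2 fold changes from -0.604 to -0.515. *Srebf1* (369, 296, 409, 301 and 544 CPM) and *Mlxipl* (1612, 1366, 1106, 1275 and 1885 CPM) were the genes with fold changes above 0, at 0.23 ± 0.22 and 0.36 ± 0.20 (adjusted p = 0.63 and 0.313).

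**Figure D3:**
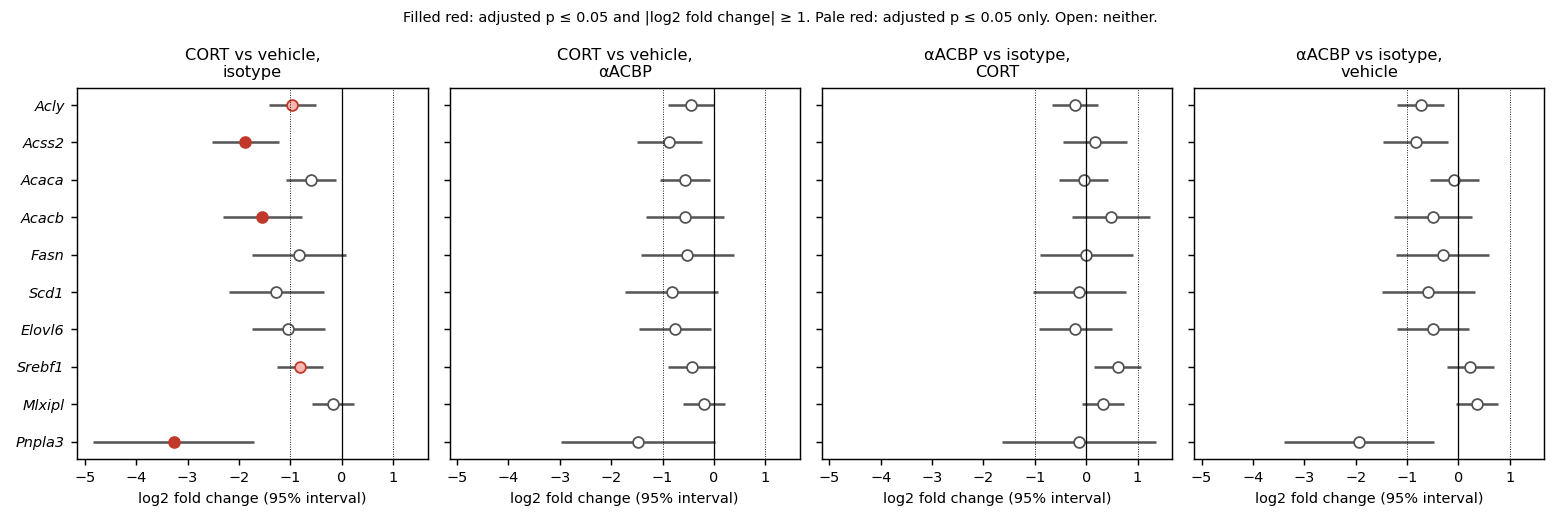
Log2 fold change (points) with 95% interval (lines) of each lipogenic gene in the 4 comparisons that differ in 1 treatment; dotted lines mark a log2 fold change of 1 in either direction. With CORT under isotype, *Acss2*, *Acacb* and *Pnpla3* are called (filled) and *Acly* and *Srebf1* pass the adjusted p only (pale), and in the other panels no gene passes.

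Mice given both treatments were compared with mice given neither. Between αACBP + CORT and Isotype + Vehicle, *Acss2* (-1.71 ± 0.31, adjusted p = 0.032) and *Acly* (-1.18 ± 0.23, adjusted p = 0.032) were called lower, 2 of 10 against 0.0311% of all genes, that is, 5 genes in all. *Acly* was at 111, 116, 123, 84.1 and 142 CPM in αACBP + CORT livers, below each Isotype + Vehicle liver. Neither call was robust to the choice of livers: the count was 0 without any 1 of 9 of the 10 livers and stayed at 2 only without replicate 5 of αACBP + CORT. Groups were separate downwards for 5 genes (*Acly*, *Acss2*, *Scd1*, *Elovl6* and *Pnpla3*), compared with 1.46% of all genes. This comparison shares its control livers with the comparison of CORT with vehicle under isotype.

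Whether CORT acted differently under αACBP was tested by the interaction of the treatments. With edgeR 0 of 10 genes were called (0.143% of all genes), 1 had an unadjusted p under 0.05, and DESeq2 and voom called 0. The interaction was above 0 for 9 of 10 genes, meaning a smaller decrease with CORT under αACBP, with a median of 0.41 beside 0.03 over all genes. The values were 1.00 ± 0.43 for *Acss2* (adjusted p = 0.382), 0.98 ± 0.51 for *Acacb* (adjusted p = 0.537) and 1.79 ± 0.99 for *Pnpla3* (adjusted p = 0.571). The interaction is equally the difference between the antibody effects with and without CORT, whose medians were -0.02 and -0.49. With αACBP, *Acss2* was at -0.83 under vehicle and 0.17 under CORT, *Acacb* at -0.49 and 0.49, and *Pnpla3* at -1.93 and -0.14. A difference in the CORT response between the antibodies was therefore not shown for any of the 10.

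Single livers departed from their groups in several genes at the same time. Averaged over the 10 genes, each standardized over the 20 livers, Isotype + Vehicle livers lay between 0.418 and 1.47 SD and Isotype + CORT livers between -1.44 and -0.197 SD, without overlap. The αACBP + Vehicle livers lay between -0.0751 and 1.27, with replicate 5 at the top, and the αACBP + CORT livers between -1.03 and 0.436, with replicate 3 at the top. Replicate 5 of αACBP + Vehicle was the highest of its group for 9 of the 10 genes, the exception being *Acaca*. This library also had the highest TMM factor, 1.29 against 0.88 to 1.08 in the other 19. Within Isotype + CORT, *Fasn* and *Scd1* were low in different livers. Replicate 1 had the highest *Fasn* (982 CPM) and the lowest *Scd1* (497 CPM), replicate 3 had low *Fasn* (207 CPM) and the highest *Scd1* (4349.7 CPM), and replicate 5 was low in both.

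**Figure D4:**
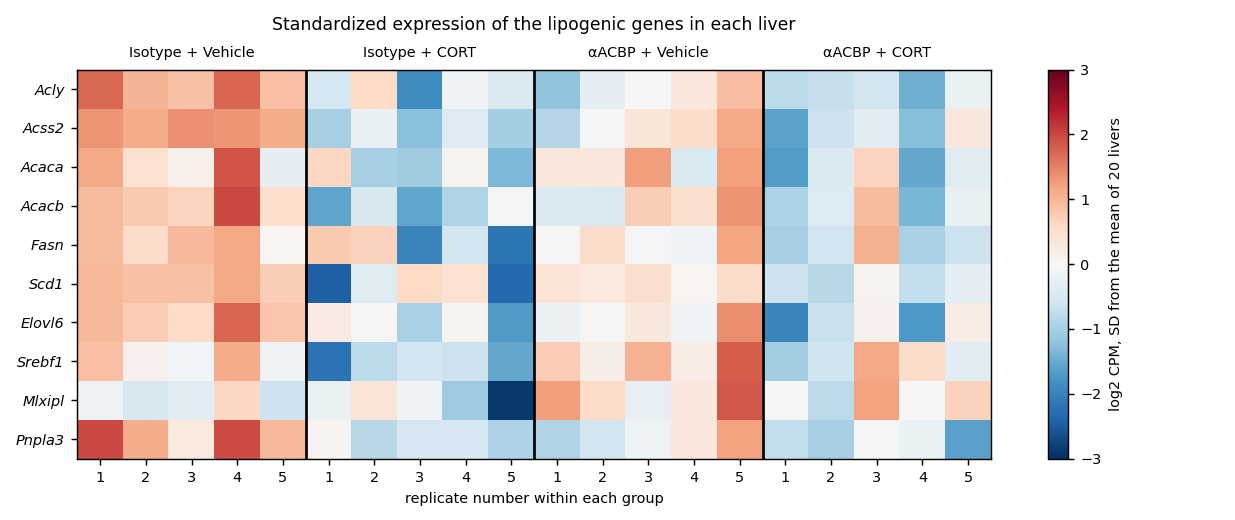
Log2 CPM of each lipogenic gene (rows) in each liver (columns, by replicate number within the 4 groups), standardized to the mean and SD of 20 livers. The Isotype + Vehicle block is mostly red, with a mean over genes of 0.418 to 1.47 SD, and in the Isotype + CORT block *Fasn* is lowest in replicates 3 and 5 whereas *Scd1* is lowest in replicates 1 and 5.

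After subtraction of group means, several of the enzymes varied together across the 20 livers, which share their libraries and depth between genes. Pearson's r was 0.807 for *Acaca* with *Elovl6* (Spearman's rho 0.803), 0.787 for *Acly* with *Acss2* (0.791), 0.751 for *Acss2* with *Elovl6* (0.761) and 0.739 for *Fasn* with *Elovl6* (0.737). It was 0.028 for *Fasn* with *Scd1* (0.296) and -0.039 for *Acly* with *Scd1* (0.329). *Scd1* followed *Srebf1* more than it followed the other enzymes, at 0.621 (0.738). Among all other genes with a mean of at least 1 CPM, those most like *Acss2* were *Dgcr14* (0.912), *Mvd* (0.876) and *Selenbp2* (0.861), and those most like *Acly* were *Baat* (0.891), *Fdps* (0.854) and *Aacs* (0.828). For *Acacb* they were *Tada3* (0.879), *Ablim1* (0.824) and *Spns2* (0.821), and for *Pnpla3* they were *Ndufb2* (0.80), *Fras1* (0.771) and *Dlc1* (0.763). These are descriptions over 20 livers without a test.

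Genes that work beside the 10 were examined in 5 lists. Of 18 lipogenic partners, which provide NADPH, activate fatty acids or extend and desaturate polyunsaturated ones, 5 fell with CORT under isotype (1.86% of all genes) and 0 rose (1.34% of all), with a median of -0.62. *Aacs*, which makes acetoacetyl-CoA for lipid synthesis in the cytosol, was called: it was at 72.8, 54.8, 65.3, 87.9 and 56.1 CPM in Isotype + Vehicle livers and at 44.9, 40.2, 10.7, 22.9 and 25.8 CPM in Isotype + CORT livers. The groups were separate, and *Aacs* fell by 1.22 ± 0.33 on the log2 scale (adjusted p = 0.0481). The elongase *Elovl2* (-0.91 ± 0.21, adjusted p = 0.0123) and the acyl-CoA synthetase *Acsl5* (-0.66 ± 0.18, adjusted p = 0.0333) were also lower, as were *Elovl5* and *Pgd*, which are named because they complete the 5. With αACBP in vehicle-treated mice, 5 of 18 fell as well (2.36% of all genes). *Acsl5* was called, at 133 to 188 CPM with αACBP + Vehicle and 267 to 412 CPM with Isotype + Vehicle (-1.03 ± 0.18, adjusted p = 0.00238). Malic enzyme *Me1*, a source of NADPH, was lower with αACBP both without CORT (-0.99 ± 0.20, adjusted p = 0.00675) and with CORT (-0.90 ± 0.20, adjusted p = 0.019), and it was the only partner that passed between the CORT-treated groups. It was at 53.5 to 76.1 CPM with αACBP + CORT, below each of the Isotype + CORT livers at 83.0 to 158 CPM.

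Control genes of the SREBP and LXR pathways, which set how much SREBP-1 is made and released, were tested next. Of 16, 0 passed with CORT under isotype with edgeR, 5 had an unadjusted p under 0.05, and the median was -0.07. *Insig2*, which holds SREBP in the endoplasmic reticulum, was at 53.7, 80.9, 25.5, 49.9 and 30.8 CPM in αACBP + Vehicle livers, and at 205, 266, 122, 177 and 82.6 CPM in αACBP + CORT livers. The groups were separate, and *Insig2* rose with CORT under αACBP by 1.82 ± 0.36 (adjusted p = 0.0344). It was called lower with αACBP in vehicle-treated mice (-1.31 ± 0.36, adjusted p = 0.0371), together with *Nr0b2*, which encodes the repressor SHP (-1.16 ± 0.27, adjusted p = 0.0159). The sterol transporter gene *Abcg5*, an LXR target, was called higher there (1.06 ± 0.22, adjusted p = 0.00862). Between the antibodies under vehicle 2 of the 16 passed lower (2.36% of all genes) and 2 higher (2.78%). Between the CORT-treated groups 1 of the 16 passed, higher with αACBP, and 0 were called (0.958% and 0.597% of all genes in either direction).

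Of 13 genes of ChREBP and sugar handling, 2 rose with CORT under isotype (1.34% of all genes) and 0 fell (1.86% of all). The fold change was above 0 for 13 of 13, with a median of 0.58, opposite in sign to the median of the lipogenic genes. *Gpd1*, which makes glycerol-3-phosphate from a glycolytic intermediate, was at 192, 218, 274, 136 and 174 CPM in Isotype + Vehicle livers and at 450, 339, 317, 302 and 396 CPM in Isotype + CORT livers, and rose without overlap (0.86 ± 0.21, adjusted p = 0.0235). The glucose transporter *Slc2a2* rose too (0.58 ± 0.16, adjusted p = 0.0453). With αACBP under CORT the median of this list was -0.48 and 0 of 13 passed with edgeR (6 at an unadjusted p under 0.05).

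Of 12 genes of triglyceride assembly and breakdown, 0 passed with CORT under isotype with edgeR (5 at an unadjusted p under 0.05), with a median of 0.32. *Agpat2*, an acyltransferase of triglyceride synthesis, rose with CORT under αACBP (1.20 ± 0.22, adjusted p = 0.0136), from 79.8 to 139 CPM in αACBP + Vehicle livers to 114 to 318 CPM in αACBP + CORT livers, and *Lpin2* fell (-0.82 ± 0.19, adjusted p = 0.0478). In vehicle-treated mice *Agpat2* was lower with αACBP (-0.93 ± 0.22, adjusted p = 0.0184) and the triglyceride lipase *Pnpla2* higher (0.86 ± 0.18, adjusted p = 0.00833). Of 10 genes of AMPK and malonyl-CoA control, 0 passed in any of the 6 comparisons with edgeR, and 0 to 3 had an unadjusted p under 0.05. The lowest p-values in this list belonged to AMPK subunits, none of which passed. *Prkaa2* was at 0.61 ± 0.21 with CORT under αACBP (adjusted p = 0.2) and at -0.61 ± 0.21 with αACBP under vehicle (adjusted p = 0.0854), *Prkag1* at 0.40 ± 0.15 with CORT under isotype (adjusted p = 0.15) and *Prkab1* at 0.39 ± 0.17 with αACBP under vehicle (adjusted p = 0.187).

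**Figure D5:**
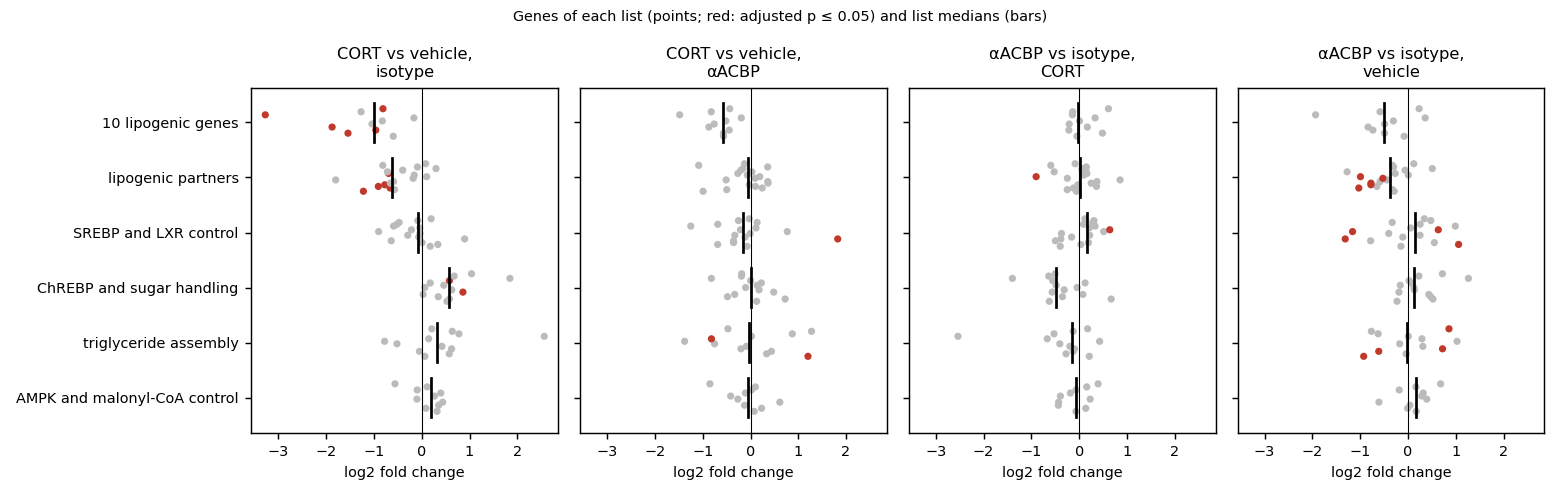
Log2 fold change of each gene (points, red where the adjusted p was 0.05 or less) in the 10 lipogenic genes and 5 further lists, in the 4 comparisons that differ in 1 treatment; bars are list medians. With CORT under isotype the medians are -1.002 for the lipogenic genes, -0.62 for their partners and 0.58 for ChREBP and sugar handling.

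Other transcripts moved with the same groups. Of 14 clock genes, 5 were called between αACBP + Vehicle and Isotype + Vehicle, against 1.30% of all genes. *Dbp*, a clock output factor that peaks once a day, was at 151 to 611 CPM in αACBP + Vehicle livers against 5.42 to 23.5 CPM in Isotype + Vehicle livers (4.31 ± 1.06, adjusted p = 0.0287). *Tef* (2.11 ± 0.41, adjusted p = 0.00859) and *Ciart* (3.24 ± 0.58, adjusted p = 0.00368) were higher as well, and *Bmal1* (-2.11 ± 0.43, adjusted p = 0.0108) and *Nfil3* (-1.14 ± 0.24, adjusted p = 0.00788) were lower. Within CORT-treated groups *Dbp* differed between livers, at 18.7, 22.2, 144, 40.4 and 114 CPM with Isotype + CORT and at 9.61, 6.44, 7.98, 6.98 and 195 CPM with αACBP + CORT. Replicates 3 and 5 of Isotype + CORT, the highest in *Dbp*, were the lowest in *Fasn*. Replicate 5 of αACBP + CORT, by far the highest of its group in *Dbp*, had 435 CPM of *Fasn*, the third highest of 5. The same liver was the highest of its group in *Acss2*, *Acly* and *Elovl6* and the lowest in *Pnpla3*. Replicate 5 of αACBP + Vehicle had 361 CPM of *Dbp* and the highest *Fasn* of its group (1228 CPM). These livers were picked after their values were seen, and a relation of *Dbp* to the lipogenic genes was not tested. With CORT under isotype *Hlf* was the only clock gene called (1.21 ± 0.21, adjusted p = 0.00098, 0.510% of all genes higher). With CORT under αACBP 1 of the 14 was called (0.212% of all genes), and 12 had an unadjusted p under 0.05. For the interaction 1 was called (0.143% of all genes) and 10 had an unadjusted p under 0.05, with a median of -1.35 beside 0.03 over all genes. Between the CORT-treated groups 0 were called (0.597% of all genes). Of 5 markers of Kupffer cells and macrophages, 3 were called lower with CORT under isotype (1.43% of all genes). With αACBP under CORT, 1 of the 5 was called higher (0.597% of all genes in either direction). The summed level of the 5 was 255 to 415 CPM in Isotype + Vehicle livers, 93.3 to 282 CPM with Isotype + CORT, 350 to 615 CPM with αACBP + Vehicle and 321 to 473 CPM with αACBP + CORT. That of 5 T and B cell markers was 7.82 to 14.9, 0.644 to 5.47, 6.998 to 14.8 and 1.61 to 9.62 CPM in the same order. Of the 3 adipocyte markers tested, only *Cfd* passed the adjusted p between the antibodies under vehicle (adjusted p = 0.0286, 2.36% of all genes lower). *Cfd* was at 2.49 ± 2.17 CPM (SD, n = 5) in Isotype + Vehicle livers and 0.163 ± 0.33 with Isotype + CORT, and 0 in each αACBP + Vehicle liver, where it was called lower. *Adipoq* was at 0.555 ± 0.454 CPM in Isotype + Vehicle livers and at 0 in each Isotype + CORT and αACBP + Vehicle liver. Of 4 stellate cell and fibroblast markers, 2 were lower with αACBP + Vehicle than with Isotype + Vehicle (2.36% of all genes). These were *Lrat* (-1.01 ± 0.28, adjusted p = 0.0332) and *Dcn* (-0.89 ± 0.22, adjusted p = 0.0208). The part of clock phase and of these cells in the values of the lipogenic genes was not tested.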

How the data were processed

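Liver RNA of 20 mice was sequenced. The authors aligned read pairs with HISAT2 and counted them per gene with HTSeq (union mode, non-unique features kept), and the deposited values are raw counts without normalization. The study's methods name GRCm39 and the submitters' processing notes name mm10; the annotation release and strand setting are not given in the sources used here. Coordinates are therefore printed only for RefSeq on GRCm38.p6, and were not used for counting. Exon lengths and overlaps come from the canonical transcripts of GENCODE M39. Each column was assigned to a mouse by its label, and 0 columns were left over.

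Counts were tested in R 4.3.3 with the quasi-likelihood test of edgeR 4.0.16 (TMM, robust estimation, its filter on low counts, 16071 of 48440 genes left), in 1 model of the 4 groups without covariates. P-values were adjusted over all genes tested (Benjamini-Hochberg). Genes were called where the adjusted p was at most 0.05 and the log2 fold change 1 or more in size. SEs follow from the F statistic, and intervals are at 95%. Depth was 14.9 to 20.3 M counts per liver. Alternatives used DESeq2 1.42.0, voom of limma 3.58.1, other filters, library sizes and limits, fewer groups, the replicate number as a block and leaving out each liver. Counts of genes by these alternatives or at unadjusted p are given without the share of all genes under the same rule.

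The 10 genes, the further lists and the tests were chosen with earlier results of these data known. Of each list, the genes called in any comparison were named, or the 3 with the lowest p where fewer than 3 were called; the Acacb ratio and the genes said to complete a count were named after their values were seen. The result of 1 gene taken by this rule is not reported here. The most alike genes were the 3 with the highest Pearson r after group centring, without predicted genes. Motifs were searched on both strands of the 250 bases before each RefSeq start. Programs were tested on simulated data with 200 genes changed for CORT against vehicle under isotype. False calls made up 0.781% of the calls with edgeR, 7.38% with DESeq2 and 0.826% with voom. The changed genes recovered were 63.5%, 69% and 60% in the same order. All planted changes exceeded a log2 fold change of 1 in size, so recovery of smaller changes was not measured.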

Additional observations from a re-analysis of the deposited data

Results flagged for a closer look

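In 4 of the 40 sets of 5 livers (10 genes in 4 groups), 1 liver lay far from the rest by Dixon's criterion (a gap of more than 0.71 of the range), where chance gives about 1 in 20. *Acacb* was 241.1 CPM in replicate 4 of Isotype + Vehicle, against 104.8 to 133 CPM in the other livers of that group. *Elovl6* was 258 CPM in the same liver, against 140.6 to 171.9 CPM. *Elovl6* was also high in replicate 5 of αACBP + Vehicle, at 215 CPM against 93.0 to 121.4 CPM. *Fasn* was 1149 CPM in replicate 3 of αACBP + CORT, against 360.2 to 457.6 CPM in the others.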

How the results depend on the processing

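Of 1170 recomputed fold changes, 1074 kept their direction and side of the limits, 30 lost a call, 25 gained one and 41 changed sign, 0 of them among called values; the causes were not tested. With CORT under isotype, 5 of the 10 genes were called by DESeq2's Wald test, without a fold limit and at unadjusted p, 4 with library sizes without the 20 most abundant genes and with only the groups compared, 2 without a filter on low counts, and 1 to 4 without 1 liver (1 without replicate 4 of Isotype + Vehicle). With αACBP under vehicle, 1 was called by DESeq2, by voom and at unadjusted p, and 0 to 1 without 1 liver (1 without replicate 5 of αACBP + Vehicle). With CORT under αACBP, voom called 1, and 0 to 1 were called without 1 liver (1 without replicate 5 of αACBP + CORT). For αACBP + CORT against Isotype + Vehicle, DESeq2 called 5, voom 7 and unadjusted p 6, while library sizes without the 20 most abundant genes, no filter, and the replicate block gave 1 each, and leaving out 1 liver gave 0 to 2. For the interaction, unadjusted p called 1. The shares of all genes under these other rules are not given, so the counts have no background beside them.

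Signs changed only where the main fold change was at most 0.31 in size, although some of the reversed values were larger. With αACBP under CORT, *Fasn* was -0.009807 with at least 10 counts in every liver, -0.009916 with DESeq2's size factors and -0.009944 with its Wald test, *Acss2* was -0.1965 with voom and *Scd1* 0.04402 with the replicate block. The interaction was -0.003548 (library sizes without 20 genes) and -0.2158 (voom) for *Acaca*, -0.02583 (voom) for *Elovl6* and 0.02502 (voom) for *Mlxipl*. Without 1 liver, αACBP under CORT ranged from -0.2459 to 0.1212 for *Acaca*, -0.1396 to 0.3397 for *Acss2*, -0.4472 to 0.3201 for *Fasn*, -0.4943 to 0.2287 for *Pnpla3* and -0.3932 to 0.2304 for *Scd1*. Under vehicle, *Acaca* ranged from -0.1909 to 0.09599. The interaction ranged from -0.1636 to 0.2066 for *Acaca*, -0.1399 to 0.631 for *Fasn* and -0.1732 to 0.1036 for *Mlxipl*.

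Livers share replicate numbers across groups but come from different mice, and deviations of same-numbered livers had correlations of -0.0999 to 0.0969 over 30 pairs, none above 0.1. With the replicate number as a block, *Acly* was -1.184 between αACBP + CORT and Isotype + Vehicle (adjusted p = 0.0625), and the other counts of calls did not change. *Pnpla3* had the lowest level of the lipogenic genes in CORT-treated livers, near 1 to 9 CPM, with as few as 20 counts in replicate 5 of αACBP + CORT. How far depth limits it was not tested.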
